A study of Mus with 5 samples.

Results

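The genes described here are 6 bone morphogenetic protein (BMP) ligand genes, *Bmp2*, *Bmp4*, *Bmp5*, *Bmp6*, *Bmp7* and *Bmp10*, taken as a family by their Ensembl identifiers, with earlier results for *Bmp2* and *Bmp10* in these libraries known. All 6 were found among the 12857 genes measured, and all 6 were above 10 counts per 1000000 reads (CPM) in every library. RNA came from E14.5 mouse hearts whose atria had been removed, so that ventricles and valves remained. The transgenic group, *Nkx2.5 Cre/+;Bmp2 tg/+*, comprised 3 pools and the WT group 2 pools. The study pooled 12 hearts of each genotype into 3 replicates, which makes 4 hearts per pool if the pools were equal. In transgenic hearts the *Nkx2.5* locus, active in developing heart muscle, supplies Cre, which excises a floxed stop cassette in *Rosa26*. Mouse *Bmp2* cDNA, linked through an IRES to eGFP, is then driven by a CAG promoter. The line goes back to 1 targeted embryonic stem cell clone. The labels call the controls WT. In a cross that the study describes, littermates without the transgene carried *Nkx2.5 Cre/+*, but whether the WT pools came from such littermates is not stated. If they carried no Cre, effects of the Cre allele and of the transgene cannot be told apart. The authors excluded a further WT pool because it clustered poorly with the other WT samples, and it was not analysed here. The 2 WT pools were thus kept for their likeness in expression. The spread between WT pools may therefore be understated, and the p-values and non-overlap of groups below depend on it.

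BMPs are secreted as dimers, bind pairs of type I and type II serine/threonine kinase receptors, and lead to phosphorylation of Smad1, Smad5 and Smad9, which enter the nucleus with Smad4 and switch on targets such as the *Id* genes. In the embryonic heart, BMP signals from the muscle of the atrioventricular canal instruct the overlying endocardium to form valve mesenchyme. *Bmp2* and *Bmp4* encode closely related ligands, the former known for the atrioventricular canal and the latter for the outflow tract. *Bmp5*, *Bmp6* and *Bmp7* encode a second related group. *Bmp10* encodes a ligand of trabecular myocardium that binds the endothelial type I receptor Acvrl1. With a *Bmp2* transgene added, the question was whether the other ligand genes rose or fell beside it.

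In the RefSeq annotation of GRCm38.p6, *Bmp2* (ENSMUSG00000027358) lies on chromosome 2 from 133552159 to 133562896. *Bmp7* (ENSMUSG00000008999) lies on the same chromosome from 172868012 to 172940321. *Bmp10* (ENSMUSG00000030046) spans 87428994 to 87434512 of chromosome 6, and *Bmp4* (ENSMUSG00000021835) spans 46383525 to 46390669 of chromosome 14. The longer genes are *Bmp5* (ENSMUSG00000032179), at 75775365 to 75900316 of chromosome 9, and *Bmp6* (ENSMUSG00000039004), at 38345716 to 38500314 of chromosome 13. Each value below is for the whole gene and does not separate exons or transcripts.

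Libraries held 7427905 to 10564780 reads over the 12857 genes, recovered from the CPM values, which were whole multiples of the worth of 1 read for 100% of genes in every library. The 6 ligand genes had between 76 and 1467 reads per library, so each value also has a counting error, given by exact Poisson intervals in the plot of levels by pool. Genes were compared as log2(CPM + 0.5) with limma, and p-values were adjusted over all 12857 genes by the Benjamini-Hochberg method, with a threshold of 0.05. Of all genes tested, 2.82% passed this threshold, 157 of them higher and 205 lower in transgenic hearts; with libraries rescaled to the same total, 125 were higher and 251 lower. Each pool is a separate group of hearts. The p-values rest on the spread between such pools, with each gene's variance drawn towards that of genes of similar level. For WT this is the spread of the 2 pools kept after the authors' exclusion. The fit had 15.6 degrees of freedom per gene, more than the pools of 1 gene supply, the rest being borrowed from other genes. An exact permutation test of 3 against 2 pools cannot reach 0.05 for any single gene.

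Of the 6 ligand genes 2 passed, beside 2.82% of all genes, a count from which nothing is read since both were known when the family was chosen: *Bmp2* rose and *Bmp10* fell, while *Bmp4*, *Bmp5*, *Bmp6* and *Bmp7* did not pass the test. The limma log2 fold change was 0.99 for *Bmp2* and -1.18 for *Bmp10*, and lay between -0.06 and 0.30 for the other 4. The median of the 6 was 0.13, beside a median of 0.0045 over all genes tested. The transgenic and WT pools did not overlap for 3 of the 6, *Bmp2*, *Bmp10* and *Bmp6*, beside 35.7% of all genes. When limma was run without its trend of variance on level, which left 10 genes called in the whole table, *Bmp2* and *Bmp10* kept these fold changes but had adjusted p-values of 0.143 and 0.145.

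**Figure D1:**
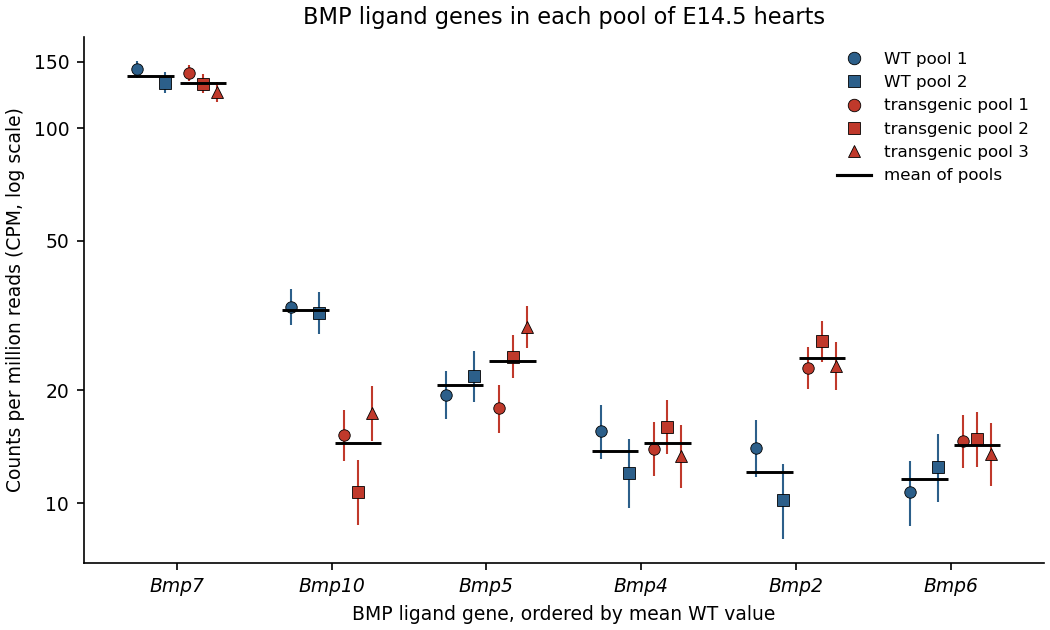
CPM of the 6 BMP ligand genes in each pool, on a log axis, with genes ordered by their mean WT value. Each point is 1 pool with its exact 95% Poisson interval for counting error, blue for WT (n = 2) and red for transgenic (n = 3), and black bars are means; the groups do not overlap for *Bmp10*, *Bmp2* and *Bmp6*.

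*Bmp2*, which is both the endogenous gene and the sequence of the transgene, measured 23.0, 27.1 and 23.3 CPM in transgenic pools 1, 2 and 3, against 14.1 and 10.2 CPM for WT pools 1 and 2. All 3 transgenic pools lay above both WT pools. The counting intervals did not overlap either, since the lowest transgenic bound was 20.04 CPM and the highest WT bound was 16.7 CPM. The fitted fold was 1.99, with a 95% interval of 1.64 to 2.43 (limma adjusted p = 0.000712). The values do not separate transgene reads from endogenous ones, so the 12.3 CPM gained is the sum of any change in both. It took place 33 among the rises of all genes, ordered by log2 fold change. The 2 WT pools differed from each other by 1.38-fold for *Bmp2*, the widest WT spread of the 6 genes. Accordingly, the log2 fold change was 1.22 against WT pool 2 alone and 0.77 against WT pool 1 alone, with limma adjusted p-values of 0.0027 and 0.044.

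*Bmp10*, the trabecular ligand gene, measured 15.2, 10.7 and 17.4 CPM in transgenic pools 1, 2 and 3, against 33.4 and 32.2 CPM for WT pools 1 and 2. All transgenic pools lay below both WT pools. The fitted fold was 0.441, with a 95% interval of 0.353 to 0.551 (limma adjusted p = 0.000626), and it took place 17 among the falls of all genes, ordered by log2 fold change. In bulk tissue, fewer cells that express *Bmp10* and less *Bmp10* RNA per cell cannot be told apart. The WT pools agreed within 1.04-fold, whereas the transgenic pools spread over 1.62-fold. Pool 2, with the fewest *Bmp10* reads (100), was also the transgenic pool with the most *Bmp2* CPM, though the counting intervals of *Bmp2* overlapped among the transgenic pools. Without transgenic pool 2 the log2 fold change of *Bmp10* was -0.99 (limma adjusted p = 0.000112). Without WT pool 1, the adjusted p was 0.0525 at a log2 fold change of -1.16, with the lone WT pool assumed to vary as the transgenic pools do.

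*Bmp6* had values of 14.6, 14.8 and 13.5 CPM in transgenic hearts and of 10.7 and 12.5 CPM in WT hearts. The groups did not overlap, but the counting intervals of the pools did. Its log2 fold change was 0.30 (standard error 0.13), and 0.19 without WT pool 1 or 0.41 without WT pool 2. The unadjusted limma p was 0.0322, a level that 17.7% of all genes reached, and the adjusted p was 0.23. The 95% interval of the difference ran from 2.01% to 48.3% above WT. With 93 to 153 reads per pool and this standard error, only a log2 change of at least 0.49 would have passed the threshold.

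*Bmp5* had values of 17.9, 24.6 and 29.5 CPM in transgenic pools 1, 2 and 3, beside 19.5 and 21.8 CPM in WT hearts. The WT pools lay inside the range of the transgenic pools. The spread of 1.65-fold between transgenic pools was the largest of the 6 genes, and the counting intervals of pool 1 (15.4 to 20.6 CPM) and pool 3 (25.9 to 33.5 CPM) did not meet. A chi-square of the reads per degree of freedom, which averages 1 for counting error alone, was 13.4 for *Bmp5* among transgenic pools and 1.17 between WT pools. For comparison, its median over the 8860 genes with a mean of 10 to 150 CPM was 1.2 among transgenic pools and 0.647 between WT pools. Under counting error alone the median lies below the average, and more so with 2 pools than with 3, so these medians are not to be read against 1. Among transgenic pools the same chi-square was 7.08 for *Bmp10*, 4.2 for *Bmp7*, 2.01 for *Bmp2*, 1.17 for *Bmp4* and 0.297 for *Bmp6*. Between WT pools it was 5.07 for *Bmp2*, 3.78 for *Bmp7*, 3.6 for *Bmp4*, 1.16 for *Bmp6* and 0.195 for *Bmp10*. The log2 fold change of *Bmp5*, 0.19 (standard error 0.15, limma adjusted p = 0.565), ranged from 0.02 to 0.38 when single pools were omitted.

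*Bmp4*, the closest relative of *Bmp2*, measured 14.0, 16.0 and 13.4 CPM in transgenic hearts, against 15.5 and 12.1 CPM in WT hearts, and the groups overlapped. The fitted log2 difference was 0.07 with a standard error of 0.14 (limma adjusted p = 0.841) and a 95% interval from -14.1% to 28.4%. A log2 change under 0.53 would not have passed at this spread. In both genotypes, the pool with most *Bmp2* also had most *Bmp4*: pool 1 of the WT pools, and pool 2 of the transgenic pools. For both genes, however, the counting intervals of the pools overlapped within each group. The ratio of *Bmp2* to *Bmp4* was even within a group, at 1.64, 1.69 and 1.74 in transgenic hearts against 0.905 and 0.844 in WT hearts. Such a ratio within a library does not depend on how libraries were scaled.

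*Bmp7*, the ligand gene with the most reads, measured 140.3, 131 and 125 CPM in transgenic pools 1, 2 and 3, against 143 and 132 CPM for WT pools 1 and 2. The groups overlapped, with a fitted log2 difference of -0.06 and a standard error of 0.06 (limma adjusted p = 0.676). With 986 to 1467 reads per pool this was the most precise of the 6 comparisons. Omitting single pools gave log2 differences from -0.12 to -0.0015. The 95% interval ran from -12.8% to 5.52%, and a log2 change of 0.25 or more would have passed.

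Across *Bmp4*, *Bmp5*, *Bmp6* and *Bmp7*, 0 of the 4 genes passed limma's adjusted threshold, 1 had an unadjusted limma p under 0.05, and the quasi-likelihood and exact tests of edgeR and DESeq2 on the recovered reads also called 0. The intervals of these genes leave room for changes of the sizes given, and a p over the threshold does not show that the levels were equal.

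**Figure D2:**
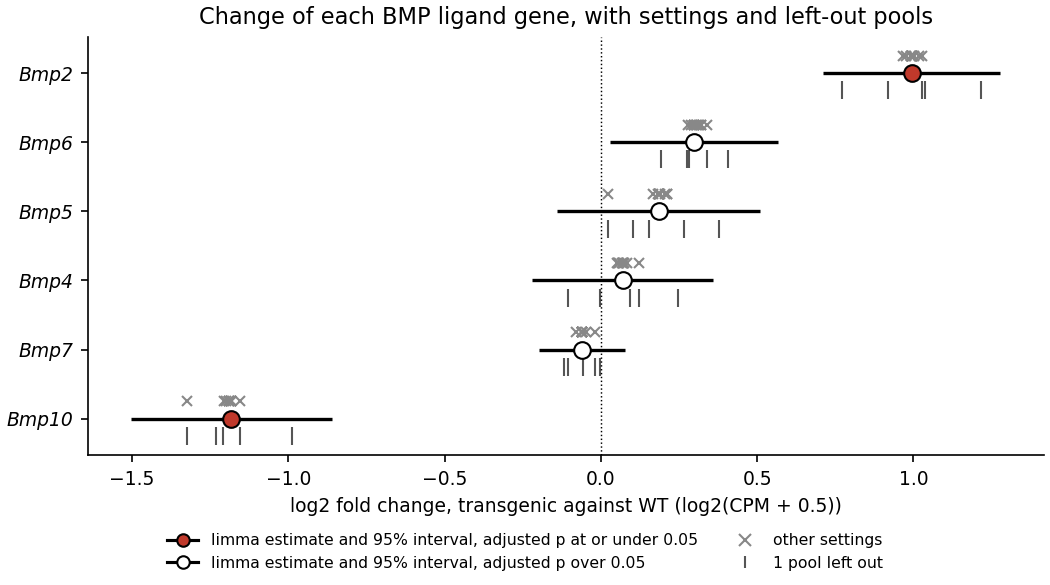
log2 fold change of each BMP ligand gene, transgenic against WT, on the log2(CPM + 0.5) scale. Circles and bars are the limma estimate and its 95% interval (filled where the adjusted p is at or under 0.05), crosses the other settings and ticks the fits with 1 pool left out; *Bmp2* stays above 0.77 and *Bmp10* at or below -0.99 in all of them, and *Bmp4* falls on both sides of 0.

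The order of the genes by WT value was *Bmp7*, *Bmp10*, *Bmp5*, *Bmp4*, *Bmp2* and *Bmp6*, with means of 138 ± 7.92, 32.8 ± 0.876, 20.7 ± 1.69, 13.8 ± 2.46, 12.1 ± 2.74 and 11.6 ± 1.26 CPM (SD, n = 2 pools). This is an order by CPM and not per transcript length, since lengths were not available for these genes, and a longer transcript gives more reads. *Bmp7* had 4.2 times the reads of *Bmp10*, *Bmp10* had 1.59 times those of *Bmp5*, and *Bmp5* had 1.5 times those of *Bmp4*; at each of these steps the ranges of both WT pools were apart. The last 3 genes, *Bmp4*, *Bmp2* and *Bmp6*, had overlapping ranges and did not differ beyond the spread between WT pools. In WT pool 2 alone, *Bmp6* came 4th and *Bmp2* last.

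In transgenic hearts the order was *Bmp7*, *Bmp2*, *Bmp5*, *Bmp4*, *Bmp10* and *Bmp6*, with means of 132.2 ± 7.77, 24.4 ± 2.28, 24.0 ± 5.84, 14.4 ± 1.37, 14.4 ± 3.39 and 14.3 ± 0.709 CPM (SD, n = 3 pools). By these means, *Bmp2* moved from place 5 to place 2, and *Bmp10* from place 2 to place 5. In single transgenic pools 1, 2 and 3, *Bmp10* took places 4, 6 and 4, and *Bmp2* places 2, 2 and 3. *Bmp2* and *Bmp5* overlapped, with *Bmp5* ahead of *Bmp2* in pool 3, and *Bmp4*, *Bmp10* and *Bmp6* also overlapped with one another. *Bmp7* kept the first place in each of the 5 pools.

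The summed CPM of the 6 genes was 225, 225 and 222 for transgenic pools and 236 and 221 for WT pools, so the transgenic values lay inside the WT range. The difference of the means, -4.9 CPM, was 2.9 CPM without WT pool 1 and -12.7 CPM without WT pool 2, so that its direction rests on 1 WT pool. The means were 223.8 ± 1.69 CPM (SD, n = 3) and 229 ± 11.04 CPM (SD, n = 2). Without *Bmp2*, the sum of the other 5 genes was 199.4 ± 2.32 CPM in transgenic and 216.6 ± 8.3 CPM in WT hearts, with every transgenic pool below both WT pools. Without *Bmp2* and *Bmp10* it was 184.9 ± 3.23 and 184 ± 7.42 CPM, a difference of 1.15 CPM that is smaller than either spread. The gain of 12.3 CPM in *Bmp2* thus stood beside a change of -18.3 CPM in *Bmp10*. These sums weigh each gene by its reads and follow *Bmp7*, which took 56.3% to 62.4% of the summed reads in all 5 pools.

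As a share of the summed reads, *Bmp2* took 10.2%, 12.0% and 10.5% in transgenic hearts against 5.95% and 4.61% in WT hearts. *Bmp10* took 6.76%, 4.78% and 7.84% against 14.1% and 14.6%. The ratio of *Bmp2* to *Bmp10* combined both changes. It was 1.51, 2.52 and 1.34 in transgenic pools 1, 2 and 3, and 0.421 and 0.317 in the WT pools, 4.85-fold higher by the means. Reads of *Bmp2* outnumbered those of *Bmp10* in every transgenic pool, and the reverse held in both WT pools.

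**Figure D3:**
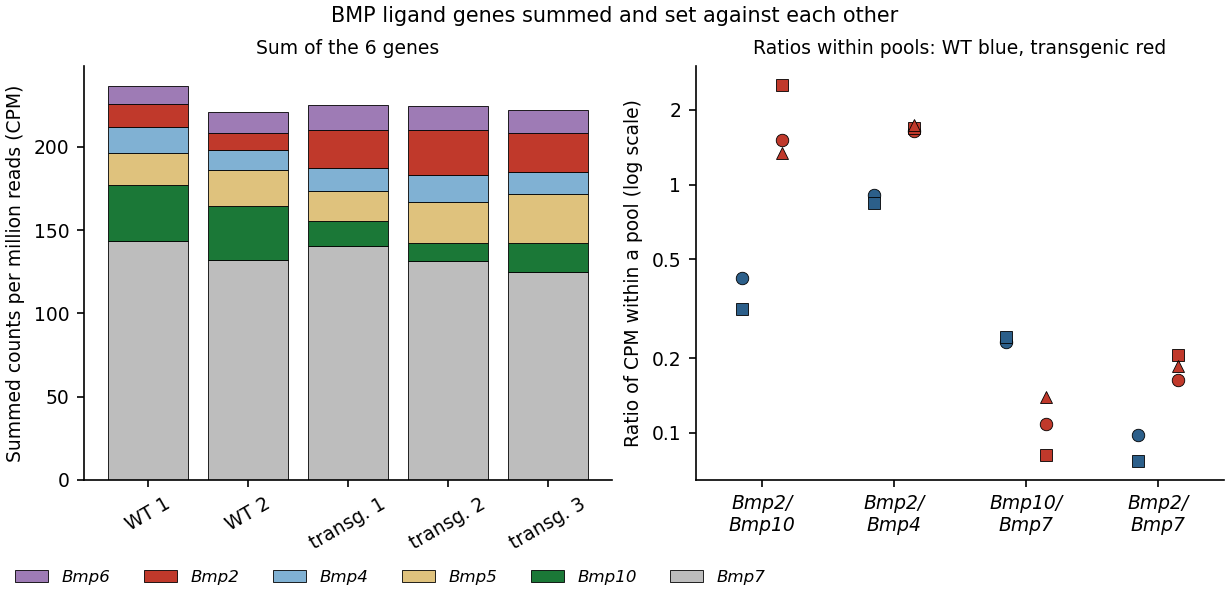
Left, summed CPM of the 6 BMP ligand genes per pool, stacked by gene; right, ratios of CPM between pairs of these genes within each pool, on a log axis (circles, squares and triangles are pools 1, 2 and 3). The sums lie between 221 and 236 CPM in all 5 pools, while the ratio of *Bmp2* to *Bmp10* is above 1 in all transgenic pools and below 1 in both WT pools.

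Of the other genes of the pathway, 68 symbols were listed by role, and only 10 could be paired with an identifier of the table. The pairing comes from the list of changed genes that the study drew from these same libraries, so these 10 are not independent evidence and say nothing of the symbols without a pair. Of the 403 genes with a name from that list, the members left out, 72.0% passed limma's threshold, 111 higher and 179 lower, and counts of paired genes below stand against that share and not against 2.82%. For the 15 further BMP and GDF ligands, the 6 proteases that cut ligand precursors and the 18 extracellular antagonists and modulators, such as Noggin and the Gremlins, 0 were paired, and they were not analysed here. Among 11 receptors and co-receptors, *Tgfbr3*, which encodes the co-receptor betaglycan, was lower in transgenic hearts, at 49.2 ± 0.725 CPM (SD, n = 3) against a WT mean of 64.7 ± 0.143 CPM (SD, n = 2). Its log2 difference was -0.39 (limma adjusted p = 0.00494). *Bmpr2*, the type II receptor gene, was at 31.9, 23.7 and 25.9 CPM in transgenic and at 37.2 and 35.4 CPM in WT pools and did not pass (limma adjusted p = 0.0522). Among 6 Smad genes, 3 were paired and all 3 rose: *Smad9*, which encodes a receptor-regulated Smad, and *Smad6* and *Smad7*, which encode inhibitory Smads. Their log2 fold changes were 1.31, 0.75 and 0.54.

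Of 14 target genes, *Smad6* and *Smad7* among them, 7 were paired and 6 rose. *Hey1*, a listed target without a pair, is reported by the paper as downregulated, so the paired genes do not stand for the list. *Atoh8*, a basic helix-loop-helix gene, rose most of the 6, by 1.08 on the log2 scale, with a mean of 17.6 ± 3.54 CPM in transgenic hearts (SD, n = 3) against 8.06 ± 1.91 CPM in WT hearts (SD, n = 2). *Id2*, *Tbx20* and *Gata4* rose by 0.96, 0.41 and 0.23 on the same scale. *Id3* was at 79.9, 87.9 and 75.2 CPM in transgenic and 71.4 and 61.3 CPM in WT pools and did not pass (limma adjusted p = 0.0676). Among the transgenic pools, pool 2 had the highest CPM of *Smad9* and of each paired target gene except *Gata4*, which was highest in pool 1. It also had the highest CPM of *Bmp2*, but its counting interval for *Bmp2* (23.8 to 30.6 CPM) overlapped those of pools 1 and 3. A relation between these levels and *Bmp2* was not tested.

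Of 48 markers of cell types that these hearts could hold, 14 symbols were paired, by way of the same list of changed genes, and 0 of the 14 were at 0. Of 5 trabecular markers 2 were paired, *Gja5* and *Sema3a*, and both fell, as *Bmp10* did. Their summed level was 112 to 158 CPM in transgenic and 199.3 to 199.4 CPM in WT pools, and it was lowest in transgenic pool 2, which also had the least *Bmp10*. Of 4 compact myocardium markers 3 were paired, *Hey2*, *Mycn* and *Tbx20*, and all 3 rose, with summed levels of 1134 to 1204 CPM against 878 to 941 CPM. Most of this sum is *Tbx20*, also listed as a target gene, with means of 932 CPM in transgenic and 704 CPM in WT pools. *Myl7*, the only paired symbol of 6 atrial markers, was at 653, 869 and 617 CPM in transgenic and at 384 and 373 CPM in WT pools, a log2 fold change of 0.90 (limma adjusted p = 0.000166). *Irx4*, a ventricular marker, was at 85.9 to 95.7 CPM in transgenic and at 70.9 and 74.4 CPM in WT pools. It rose by 0.33 on the log2 scale. The part of these markers in the change of *Bmp10* was not tested.

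Other markers belong to tissues around the myocardium. Of 7 endothelial and endocardial markers *Kdr* and *Tie1* fell and *Cdh5* did not pass (limma adjusted p = 0.0563), with summed levels of the 3 at 426 to 506 CPM in transgenic and 590 to 603 CPM in WT pools. *Pdgfra*, the only paired symbol of 6 for valve mesenchyme, fell by 0.34 on the log2 scale, and *Tbx18*, the only paired symbol of 4 for epicardium, rose by 0.37. *Myh11* and *Rgs5*, paired among 5 genes of outflow tract and smooth muscle, fell by 0.71 and 0.48. Among 5 red blood cell markers 0 were paired. The part of these markers in the values of the ligand genes was not tested.

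The genes whose profile over the 5 pools was nearest to each of the 2 changed ligands were sought among 403 named genes with a mean of at least 5 CPM. The measure was the root mean square difference of log2(CPM + 0.5) after each gene's mean had been subtracted. Genes were thus picked for likeness over these same 5 pools, so the patterns they share with the ligand follow in part from the choice. Nearest to *Bmp2* were *Zcchc12*, which encodes a zinc finger protein known as a BMP signalling co-activator, *Atoh8*, and *Ass1*, which encodes argininosuccinate synthase. They differed from *Bmp2* by 0.107, 0.11 and 0.117 on the log2 scale, and took places 1, 3 and 4 among all 11483 genes of that level, so that 1 gene without a name was nearer than *Atoh8*. *Zcchc12* had 10.04, 10.3 and 10.5 CPM in transgenic hearts, beside 6.66 and 4.29 CPM in WT hearts, and shared with *Bmp2* the gap between the WT pools. *Ass1* had 12.4, 15.2 and 11.9 CPM in transgenic hearts, beside 7.08 and 6.43 CPM in WT hearts.

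Nearest to *Bmp10* were *Gpr126*, which encodes an adhesion G protein-coupled receptor, *Angpt1*, which encodes a ligand of the endothelial receptor Tek, and *Slit2*, which encodes a guidance ligand of Robo receptors. Their differences from *Bmp10* were 0.0767, 0.101 and 0.132 on the log2 scale, and they took places 1, 2 and 3 among the same 11483 genes, named or not. *Gpr126* had 35.0, 25.7 and 41.9 CPM in transgenic pools 1, 2 and 3, beside 69.6 and 68.8 CPM in WT hearts, and *Slit2* was at 72.9, 63.9 and 85.4 CPM against 155 and 143 CPM. All 3 were lowest in transgenic pool 2 and highest of the transgenic pools in pool 3, as *Bmp10* was, an order that the choice by profile favours. Names come from the study's list of changed genes, so a near gene outside that list counts in the places but could not be named.

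**Figure D4:**
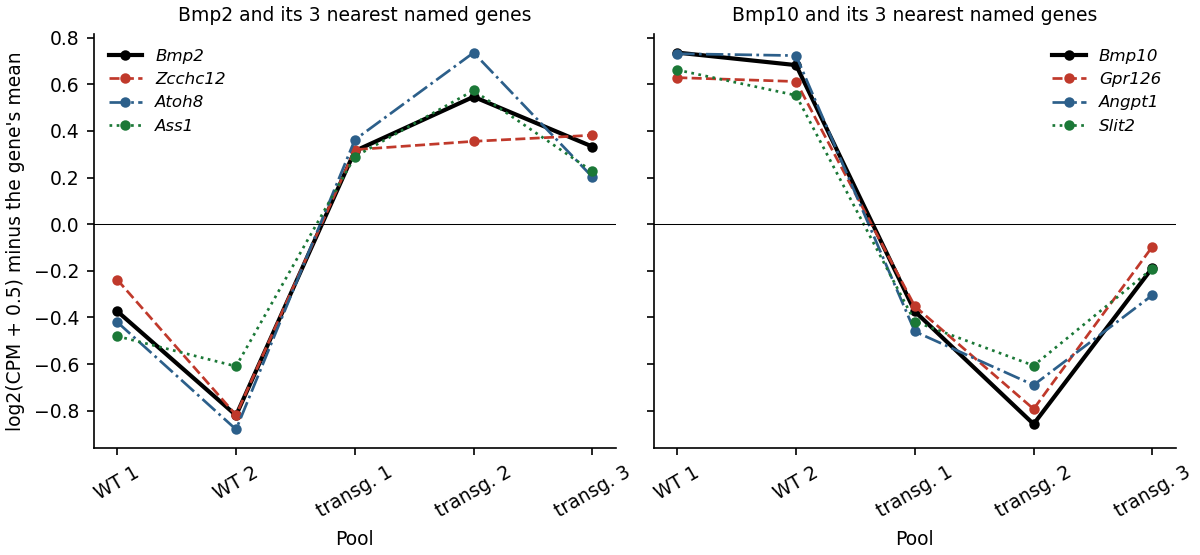
log2(CPM + 0.5) in each pool minus the gene's mean over the 5 pools, for *Bmp2* (left) and *Bmp10* (right) with the 3 nearest named genes of each. *Bmp2* peaks in transgenic pool 2 and is lowest in WT pool 2. *Bmp10* is lowest in transgenic pool 2, as are its 3 neighbours, which were picked for likeness over these pools.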

How the data were processed

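RNA-seq was analysed from 3 transgenic and 2 WT pools, of 4 hearts each if the pools were equal. The authors removed adaptors with cutadapt and estimated gene expression by RSEM against GRCm38 (RSEM 1.2.19 and edgeR 3.0.8 in the submitters' processing notes). The deposited values are CPM, counts per 1000000 reads of a scaled library size, for 12857 genes that had passed the authors' filter on low values. The columns were matched to pools by name. Reads were recovered from the gap between values (tolerance 0.01 reads). limma 3.58.1 in R 4.3.3 (eBayes with a variance trend, no covariates) was run on log2(CPM + 0.5) over all genes; the filter, at least 1 CPM in at least 2 libraries, removed 0. edgeR 4.0.16 and DESeq2 1.42.0 on recovered reads were alternatives. Tests were checked on simulated data. Intervals are 95% and, for single pools, cover counting error only.

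The members and lists were chosen with earlier results of these data known. The rule named all members, each listed pathway gene past the threshold, and the 3 nearest profiles of *Bmp2* and of *Bmp10*. *Bmpr2*, *Id3* and the single marker genes fall outside it and were named after their values were seen. Names other than the members' come from the study's list of changed genes (405 identifiers), and the RefSeq table pairs 0 genes with Ensembl identifiers.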

Additional observations from a re-analysis of the deposited data

How the results depend on the processing

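The limma count of 362 genes became 10 without the variance trend, 229 with DESeq2, and 43 to 464 when single pools were omitted (226 without transgenic pool 2, and 45 and 43 without WT pool 1 or 2, where the lone WT pool is assumed to vary as the transgenic pools do). Without the variance trend, *Bmp2* (log2 fold change 0.99, adjusted p = 0.143) and *Bmp10* (-1.18, adjusted p = 0.145) were not called, and the cause was not tested. Omitting single pools gave *Bmp2* log2 fold changes from 0.77 to 1.22, *Bmp10* from -1.33 to -0.99 (not called without WT pool 1), and *Bmp4* from -0.11 to 0.25, the last turning negative without transgenic pool 2 or WT pool 2. *Bmp2* was called in 15 and *Bmp10* in 14 of the 16 alternatives, and *Bmp4*, *Bmp5*, *Bmp6* and *Bmp7* in 0. These alternatives are not independent of each other. The setting without the filter repeats the main fit, since the filter removed 0 genes. The replicate block below gives the same log2 fold changes as leaving out transgenic pool 3. The summed difference, -4.9 CPM, was -17.2 without *Bmp2*, 13.4 without *Bmp10*, and -12.7 to 2.9 when single pools were omitted. By 1 WT pool at a time, places in the order ranged from 5 to 6 for *Bmp2*, 4 to 5 for *Bmp4* and 4 to 6 for *Bmp6*. The labels do not say whether pool numbers pair the pools. Same-numbered deviations correlated at -0.026 and -0.05. This cannot decide the question, since the deviations of 2 WT pools from their mean mirror each other. With the pool number as a replicate block, in which transgenic pool 3 has no partner, limma called 655 genes, *Bmp2* (1.03) and *Bmp10* (-1.33) among them, and no call of the 6 changed. Levels per length were not run.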
